A study of Prunus persica with 21 samples.

Results

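Peach leaves sprayed with 1000 nM PpPep2 and collected 24 h later were compared with untreated leaves (t0), 3 libraries against 3, out of 21 libraries in the series. PpPep2 is a synthetic copy of one of the plant elicitor peptides (Peps) that peach itself encodes. All plants were juvenile Prunus persica var. Big Top, propagated in vitro and kept in a glasshouse, and the central vein was cut out of every leaf before RNA extraction. The t0 plants received no peptide, although their treatment label reads mock. Each group had 3 biological replicates. Several plants per replicate are described in the methods. The other groups used below are PpPep2 1 h and 48 h (1000 nM) and PpPep1 24 h (100 nM). None of the 21 libraries came from leaves sprayed without peptide and collected at 24 h. The libraries therefore cannot tell the peptide apart from the 24 h that passed since t0. By RT-qPCR, the paper reports no significant change over the time course in mock plants for the genes it used to check the sequencing. Other genes were not covered by that control.

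Plant elicitor peptides are cut from larger precursor proteins when a cell is damaged or attacked. They are perceived at the cell surface by PEPR receptor kinases, which share co-receptors with FLS2, the receptor of bacterial flagellin. Perception opens calcium channels and activates calcium-dependent and mitogen-activated protein (MAP) kinases, which act on WRKY and ethylene-response transcription factors and on the hormones ethylene, jasmonate and salicylic acid. Transcripts of this early response are typically induced quickly.

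The 3 PpPep2 24 h libraries were identified by matching, because the headings of 9 of the 21 count columns did not match the study's own mapping statistics. The 3 columns headed p2t1 summed to 0.9695 to 0.9736 of the read pairs listed for PpPep2 24 h, and the number of genes that held 25% of the reads (23, 21 and 26) was equal to the listed one. Set against the libraries they are headed after, PpPep2 1 h, the same columns had 1.0895 to 1.1801 times the listed read pairs. The 3 t0 columns matched as headed. All values below use the matched reading. Both groups were sequenced on the same pair of flowcells. The PpPep2 24 h libraries held 56445274, 52099716 and 46005709 counts and the t0 libraries 44415576, 49253467 and 39985204 counts. Correlations of log2 TMM-scaled CPM (counts of a gene relative to library size) were 0.9916 to 0.9928 among PpPep2 24 h libraries, 0.9883 to 0.9905 among t0 libraries and 0.9807 to 0.9856 between the groups. The marker lists used here matched 1 gene for vein and phloem and no name for mesophyll or guard cells. For epidermis they matched 2 GDSL esterase/lipases by family name only, which does not show that these genes are epidermal. The labelled tissue could therefore be checked only in part, by the 1 vein and phloem gene. The 3 markers summed to 16.9 to 18.4 CPM in PpPep2 24 h leaves and 17.5 to 19.1 CPM in t0 leaves. Of the 3, 0 were called, against 1.31% over all genes. Most of this sum is the phloem gene PRUPE_8G030100, with 13 ± 0.422 CPM in PpPep2 24 h leaves and 13.2 ± 0.934 CPM in t0 leaves (SD, n = 3), so it says little about the epidermis.

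At 24 h after PpPep2, 244 genes were differentially expressed (DEG) relative to t0, of 18586 tested (1.31%). Of these, 189 (1.02%) were higher and 55 (0.296%) lower in PpPep2 24 h leaves, so 77.5% of the calls were upward. A DEG had a Benjamini-Hochberg adjusted p below 0.01 in edgeR's quasi-likelihood test and a log2 fold change (log2FC) above 1 or below -1. The median log2FC was 1.93 among the higher genes and -1.36 among the lower ones, against 0.00 over all genes tested. The extremes were 6.20 and -3.52, both in genes with a mean under 1 CPM in each group. Among DEG with a mean of at least 1 CPM in a group, they were 4.26 (PRUPE_4G059600) and -2.16 (PRUPE_4G172000). Log2FC exceeded 2 in 88 of the higher genes and 3 in 36 of them, and was under -2 in 6 of the lower genes. Most of these transcripts were scarce. The larger of the 2 group means had a median of 2.89 CPM among the higher genes and 6.57 CPM among the lower ones, against 12.2 CPM over all genes tested, and it stayed under 1 CPM in 53 higher and 7 lower genes. In bulk leaf RNA, a change in the cells that make a transcript and a change in transcript per cell cannot be told apart. In all 244 DEG, the 3 libraries of one group lay above the 3 of the other, which was so for 23.1% of all genes tested. The count depended on single libraries: it was 125 without t0 replicate 1 and 137 without PpPep2 24 h replicate 2. Without PpPep2 24 h replicate 3, 20 genes were lower in place of 55, and without t0 replicate 2, 119 were higher in place of 189.

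**Figure D1:**
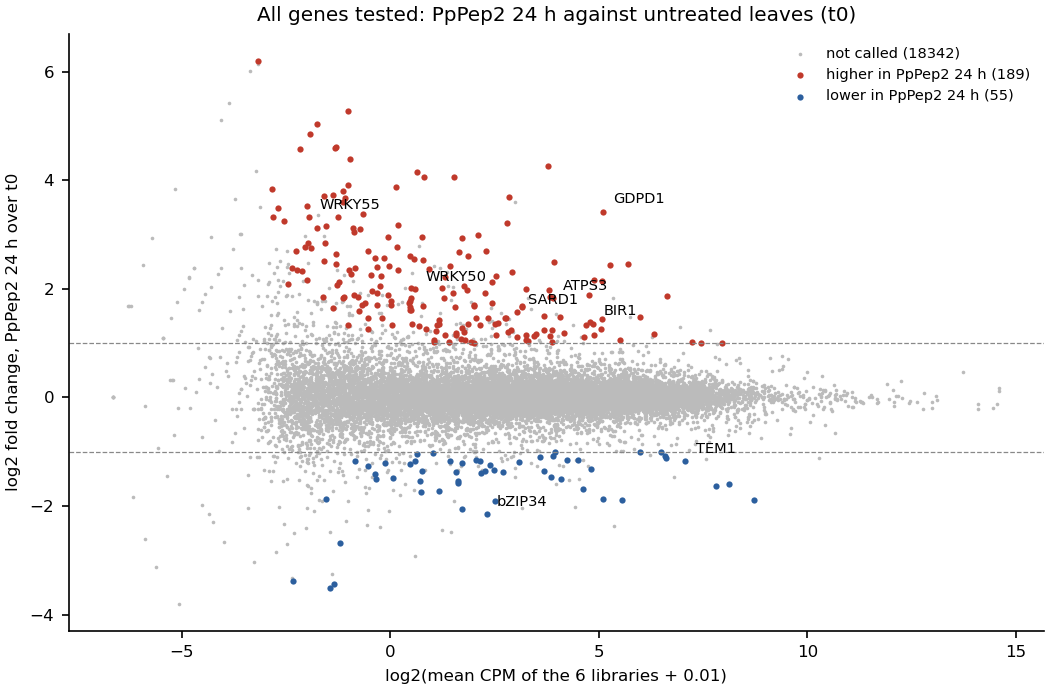
Log2 fold change of PpPep2 24 h over t0 (vertical axis) against mean abundance of the 6 libraries (horizontal axis, log2 of CPM plus 0.01). Each point is 1 of 18586 genes, coloured where called. The 189 higher genes outnumber the 55 lower ones and many lie at low abundance, and dashed lines mark a log2FC of 1 and -1.

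Names were available for 572 of the tested genes, and 18 of these were called (3.15%), 16 higher and 2 lower. The other 226 DEG have an identifier only. Many of the names come from gene sets and a network that the study drew from genes responding in these same libraries, so the share of named DEG is not independent of the data. The account below therefore follows the named members by role and closes with the unnamed ones.

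The Pep receptor genes were not called at 24 h. PpPEPR1a (PRUPE_3G167800) is a peach gene of the Pep receptor family. It had 14.3, 13.3 and 9.81 CPM in PpPep2 24 h leaves, against 9.25, 6.79 and 9.90 CPM in t0 leaves. The lowest PpPep2 library lay just under the highest t0 library. The log2FC was 0.53 ± 0.17 (SE, n = 3 in each group) and missed the threshold (edgeR adjusted p = 0.0622). Its neighbour in the receptor family, PpPEPR1b (PRUPE_3G167900), averaged 1.56 ± 0.25 CPM in PpPep2 24 h leaves and 1.45 ± 0.325 CPM in t0 leaves (SD, n = 3). The flagellin receptor gene PpFLS2 (PRUPE_3G304400) averaged 0.47 ± 0.16 CPM in PpPep2 24 h leaves and 0.34 ± 0.06 CPM in t0 leaves. Neither was called, with a log2FC of 0.11 ± 0.21 for PpPEPR1b and 0.48 ± 0.29 for PpFLS2. The paper reports that neither PpPEPR gene was detected in untreated leaf blades. Here the t0 libraries held 445, 332 and 414 reads of PpPEPR1a and 84, 54 and 63 reads of PpPEPR1b.

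BIR1 (PRUPE_8G186400) was the receptor-complex gene that stayed high. In Arabidopsis it is a receptor-like kinase that binds the co-receptor BAK1 and holds back defence and cell death. It had 43.1, 45.5 and 37.2 CPM in PpPep2 24 h leaves, against 15.3, 15.0 and 18.8 CPM in t0 leaves. The groups were far apart, with each PpPep2 library near the same level. BIR1 rose 2.56-fold (log2FC 1.36 ± 0.19, edgeR adjusted p = 0.000364). It was called under each of the 12 alternatives that kept the matched columns, including each library left out in turn. PpPep2 1 h leaves had 229 ± 61.3 CPM and PpPep2 48 h leaves 28.6 ± 1.29 CPM (SD, n = 3). BIR1 was the only one of 4 Pep perception genes called (1.31% called over all genes).

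The study followed 19 genes by RT-qPCR, chosen on these samples. Of these, 2 were DEG here (10.5% against 1.31% over all genes): BIR1 and basic leucine zipper 34 (bZIP34). Their primers are shown because they define the stretch by which each transcript can be measured again, and they run 5′ to 3′.
BIR1 forward: gtggccaacaatcagctgtc
BIR1 reverse: gcaatgcttcaaagggcctc
bZIP34 forward: catcaggagcagcagcatca
bZIP34 reverse: tgcttttgaccctcttggga

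bZIP34 (PRUPE_4G172000) was lower at 24 h. In Arabidopsis this transcription factor is known from pollen development. It had 2.46, 1.86 and 1.06 CPM in PpPep2 24 h leaves, against 9.90, 6.81 and 7.58 CPM in t0 leaves. The highest PpPep2 library was under the lowest t0 library, and the level in t0 leaves was 4.46 times that in PpPep2 24 h leaves. The log2FC was -2.16 ± 0.31 (edgeR adjusted p = 0.000395), and the call held under each of the 12 alternatives that kept the matched columns. PpPep2 1 h leaves had 13.1 ± 3.41 CPM and PpPep2 48 h leaves 5.88 ± 1.81 CPM (SD, n = 3).

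The other 17 genes with RT-qPCR assays were not called, although several lay apart. WRKY33 (PRUPE_6G286000), which in Arabidopsis drives defence against necrotrophic fungi, had 7.78, 10.3 and 5.94 CPM in PpPep2 24 h leaves, against 2.08, 2.31 and 3.32 CPM in t0 leaves. Its log2FC of 1.65 ± 0.36 passed on size but not on its edgeR adjusted p of 0.011. Xyloglucan endotransglucosylase/hydrolase 2 (PRUPE_3G171500), a cell wall remodelling enzyme, had 0.736, 0.855 and 0.614 CPM in PpPep2 24 h leaves, against 7.09, 1.14 and 3.78 CPM in t0 leaves. The 3 t0 libraries varied widely among themselves, and the log2FC of -2.44 ± 0.56 had an edgeR adjusted p of 0.0155. PR4 (PRUPE_6G141100), a chitin-binding pathogenesis-related protein, had 24.6, 37.6 and 26.4 CPM in PpPep2 24 h leaves, against 4.64, 8.54 and 22.2 CPM in t0 leaves. One t0 library lay close to the treated ones, and the log2FC was 1.33 ± 0.47 (edgeR adjusted p = 0.116). PR4 had 5.27 ± 1.11 CPM in PpPep2 1 h leaves and 27.8 ± 8.80 CPM in PpPep2 48 h leaves.

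Several genes of this panel were close to their untreated level. MPK3 (PRUPE_6G091700), a MAP kinase of immune signalling, averaged 34.5 ± 4.69 CPM in PpPep2 24 h leaves and 34.3 ± 4.10 CPM in t0 leaves. The calcium-dependent kinase CDPK8 (PRUPE_7G064300) averaged 45.3 ± 4.26 CPM in PpPep2 24 h leaves and 40.1 ± 0.47 CPM in t0 leaves. Peroxidase 44 (PRUPE_7G016500) averaged 40.8 ± 8.56 CPM in PpPep2 24 h leaves and 38.1 ± 10.4 CPM in t0 leaves. Their log2FC were 0.01 ± 0.16, 0.17 ± 0.17 and 0.10 ± 0.37, each within about 1 standard error of 0. CDPK11 (PRUPE_7G090800), the panel's other calcium-dependent kinase, averaged 1.44 ± 0.24 CPM in PpPep2 24 h leaves and 0.671 ± 0.07 CPM in t0 leaves. Its libraries did not overlap, but it was not called (log2FC 1.11 ± 0.52, edgeR adjusted p = 0.246). Over the 19 genes, 14 had a positive log2FC and the median was 0.53, against 0.00 over all genes tested.

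**Figure D2:**
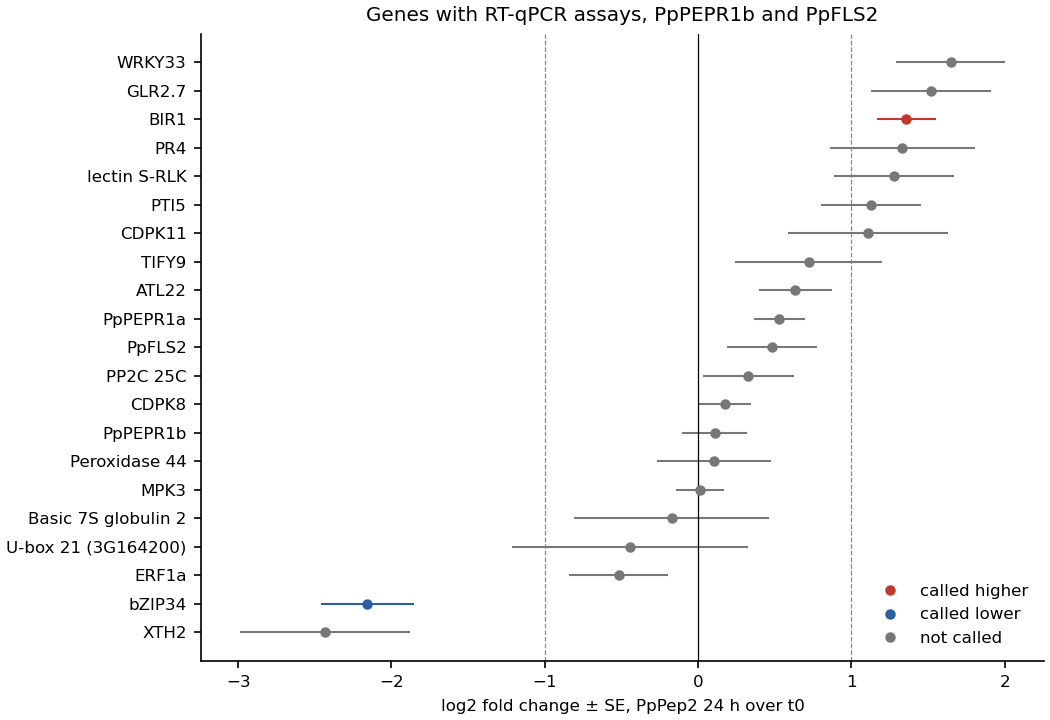
Log2 fold change of PpPep2 24 h over t0 with its standard error (horizontal axis) for the 19 genes with RT-qPCR assays, PpPEPR1b and PpFLS2, 3 libraries per group. BIR1 was called higher and bZIP34 lower, and the grey genes, among them WRKY33 and PR4, were not called.

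Of 25 WRKY transcription factors tested, 3 rose and 0 fell, 12% against 1.31% over all genes. WRKY factors bind W-box elements in the promoters of defence and senescence genes. WRKY50 (PRUPE_1G407500) had 2.29, 2.92 and 1.99 CPM in PpPep2 24 h leaves, against 0.561, 0.531 and 0.717 CPM in t0 leaves. It rose 3.99-fold (log2FC 2.00 ± 0.28, edgeR adjusted p = 0.000267). In Arabidopsis, WRKY50 takes part in the salicylic acid-dependent repression of jasmonate signalling. WRKY55 (PRUPE_2G264900) had 0.410, 0.502 and 0.451 CPM in PpPep2 24 h leaves, against 0.0624, 0.0613 and 0 CPM in t0 leaves, with a log2FC of 3.32 ± 0.60. These are 24, 27 and 22 reads against 3, 3 and 0, so the size of this change is poorly fixed, but the groups do not overlap. WRKY53 (PRUPE_2G307400), an Arabidopsis regulator of leaf senescence, had 2.33, 2.53 and 2.05 CPM in PpPep2 24 h leaves, against 0.915, 0.695 and 1.17 CPM in t0 leaves. It rose (log2FC 1.32 ± 0.26), and the call was lost without t0 replicate 1 or 2 or without PpPep2 24 h replicate 1 or 2 (edgeR adjusted p up to 0.0286). Another gene named WRKY53, PRUPE_5G117000, was not among the called genes. Of the 25 WRKY genes, 21 had a positive log2FC, and their median was 0.45. Most of the WRKY names come from gene sets that the study found enriched in these samples.

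Among 35 other named transcription factors tested, 2 rose and 1 fell (8.57% called against 1.31% over all genes), with a median log2FC of 0.03. NAC22 (PRUPE_8G174800), a member of the NAC family of plant stress regulators, had 20.1, 23.6 and 18.5 CPM in PpPep2 24 h leaves, against 9.25, 6.79 and 10.4 CPM in t0 leaves. The 2 ranges were well separated (log2FC 1.24 ± 0.17, edgeR adjusted p = 0.000300). The basic helix-loop-helix factor bHLH041 (PRUPE_7G207500) had 2.34, 2.14 and 1.31 CPM in PpPep2 24 h leaves, against 0.146, 0.388 and 0.311 CPM in t0 leaves. It rose 6.85-fold, but stayed a DEG in 1 of the 6 fits that left out a library, that without PpPep2 24 h replicate 3 (edgeR adjusted p up to 0.031 in the others). The gene that fell was bZIP34, above.

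Of 5 genes on the ethylene list, 1 fell (0.296% over all genes) and 0 rose, with a median log2FC of -0.52. The DEG was TEM1 (PRUPE_1G305900), an AP2/ERF and B3 domain repressor that delays flowering in Arabidopsis. TEM1 entered the list only by the letters ERF in its name, so its call is not a result about ethylene genes. It had 82.6, 85.7 and 79.6 CPM in PpPep2 24 h leaves, against 187, 185 and 186 CPM in t0 leaves. Replicates hardly differed, and the level in t0 leaves was 2.25 times that in PpPep2 24 h leaves (log2FC -1.17 ± 0.17, edgeR adjusted p = 0.000311). TEM1 had 328 ± 67.8 CPM in PpPep2 1 h leaves and 280 ± 27.3 CPM in PpPep2 48 h leaves, so of the 4 groups in the PpPep2 series the 24 h group was the lowest. This direction rests on the matched reading: with the columns as headed, the log2FC of TEM1 was 0.84. PTI5 (PRUPE_4G055500), an ethylene response factor of defence described in tomato, averaged 9.80 ± 3.16 CPM in PpPep2 24 h leaves and 4.52 ± 1.59 CPM in t0 leaves and was not called (edgeR adjusted p = 0.0519). None of the 3 jasmonate genes tested was called (1.31% over all genes). The repressor TIFY9 (PRUPE_1G218500) averaged 10.1 ± 3.75 CPM in PpPep2 24 h leaves and 6.17 ± 4.09 CPM in t0 leaves, with overlapping libraries.

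The salicylic acid list had 4 genes, and 1 rose (1.02% over all genes). SARD1 (PRUPE_5G223600, SAR DEFICIENT 1), which in Arabidopsis activates salicylic acid synthesis, had 12.3, 14.4 and 10.3 CPM in PpPep2 24 h leaves, against 4.22, 3.27 and 5.07 CPM in t0 leaves. The lowest PpPep2 library lay well above the highest t0 library. SARD1 rose 2.96-fold (log2FC 1.56 ± 0.29, edgeR adjusted p = 0.00338), a call that was lost when PpPep2 24 h replicate 2 or t0 replicate 1 or 2 was left out (adjusted p up to 0.021). Its level was 48.8 ± 18.5 CPM in PpPep2 1 h leaves and 12 ± 1.68 CPM in PpPep2 48 h leaves. Glutaredoxin-C9 (PRUPE_4G053500), a redox enzyme induced by salicylic acid in Arabidopsis, averaged 5.24 ± 1.18 CPM in PpPep2 24 h leaves and 2.81 ± 0.52 CPM in t0 leaves. Its log2FC of 0.90 ± 0.26 passed neither threshold (edgeR adjusted p = 0.0421).

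**Figure D3:**
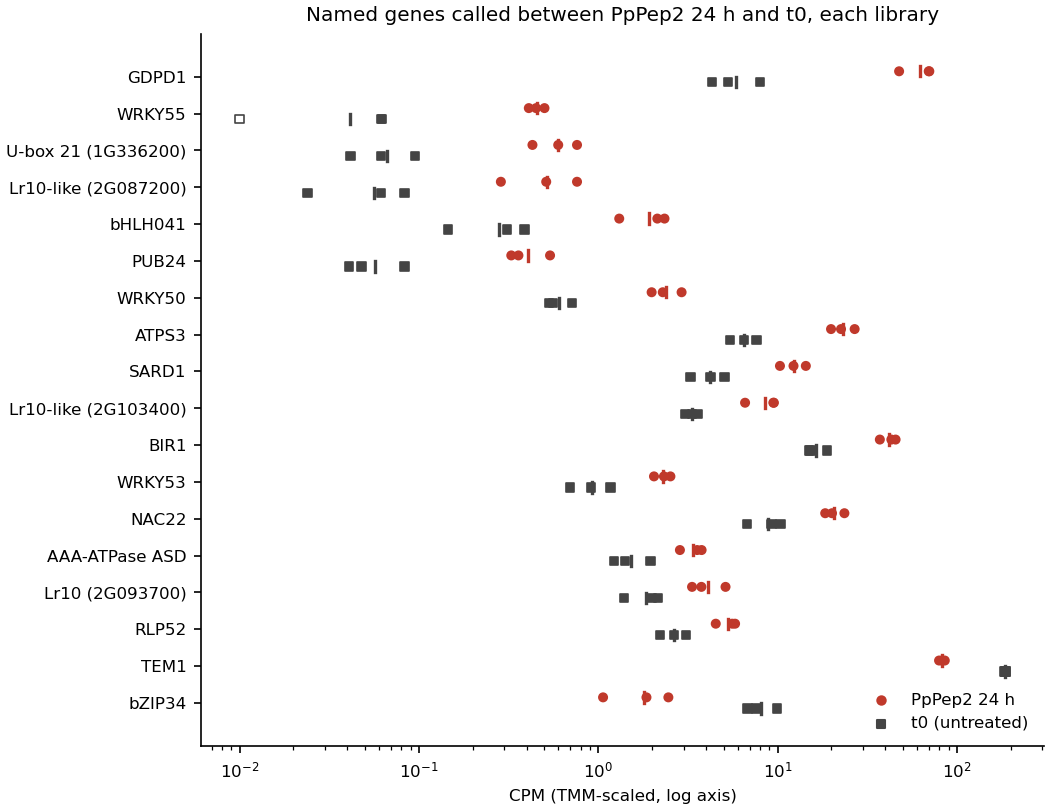
CPM (log axis) of the 18 named DEG in each library, with PpPep2 24 h as circles and t0 as squares, and vertical ticks for group means. A hollow square at the left edge stands for the t0 library in which WRKY55 had 0 counts. The 16 higher genes run from under 1 CPM to GDPD1 at 47.7 to 70.2 CPM in PpPep2 24 h leaves, and TEM1 and bZIP34 lie lower in PpPep2 24 h leaves.

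The receptor-like kinase list, which also takes in receptor-like proteins, was the longest of the lists by role. Of its 47 genes tested, 4 rose and 0 fell (8.51% against 1.31% over all genes). Many of the list are Lr10-like kinases, relatives of a wheat leaf rust resistance kinase. The Lr10-like gene PRUPE_2G103400 had 9.54, 9.48 and 6.59 CPM in PpPep2 24 h leaves, against 3.58, 3.33 and 3.06 CPM in t0 leaves. It rose 2.57-fold (log2FC 1.36 ± 0.17, edgeR adjusted p = 7.6e-05). PRUPE_2G087200, of the same family, had 0.513, 0.762 and 0.287 CPM in PpPep2 24 h leaves, against 0.0832, 0.0613 and 0.0239 CPM in t0 leaves, and its call was lost when the 6 libraries were fitted alone (edgeR adjusted p = 0.0141). PRUPE_2G093700 had 3.76, 5.13 and 3.34 CPM in PpPep2 24 h leaves, against 2.00, 1.39 and 2.15 CPM in t0 leaves. Its call was lost without PpPep2 24 h replicate 2 or t0 replicate 1 or 2. It was also lost when the 6 libraries were fitted alone (edgeR adjusted p up to 0.0229 in these fits). The fourth was Receptor-like protein 52 (RLP52, PRUPE_7G219300), with a log2FC of 1.01 ± 0.19, just past the size threshold, and its call was lost without PpPep2 24 h replicate 1 or 2 or t0 replicate 1 or 2 (adjusted p up to 0.0265), and also with DESeq2, RLE size factors or no filter on low counts. The Lr10-like genes are close copies, and the estimated counts could divide reads between them, so the value of any one is uncertain. Disregarding size, 8 of the 47 had an adjusted p below 0.01, against 2.73% over all genes. The median log2FC of the list was 0.25, with 30 of 47 positive. Most names on this list come from gene sets that the study found enriched in these samples.

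Of 15 ubiquitin ligases tested, 2 rose and 0 fell (13.3% called against 1.31% over all genes), both at very low levels. PUB24 (PRUPE_7G094100), an Arabidopsis U-box ligase that dampens immune signalling, had 0.359, 0.539 and 0.328 CPM in PpPep2 24 h leaves, against 0.0832, 0.0409 and 0.0478 CPM in t0 leaves. U-box domain-containing protein 21 (PRUPE_1G336200) had 0.599, 0.762 and 0.430 CPM in PpPep2 24 h leaves, against 0.0416, 0.0613 and 0.0956 CPM in t0 leaves. Both rose, 6.82-fold and 8.91-fold, from fewer than 5 reads in each t0 library. The U-box 21 call (edgeR adjusted p = 0.00984) was lost in each of the 6 fits without a library (adjusted p up to 0.064). It was also lost with RLE size factors, no filter on low counts or a replicate block. The PUB24 call was lost without PpPep2 24 h replicate 2 or any t0 library (adjusted p up to 0.0179). The second U-box 21 gene, PRUPE_3G164200, averaged 0.747 ± 0.22 CPM in PpPep2 24 h leaves and 1.02 ± 0.78 CPM in t0 leaves. The median log2FC of the ligases was 0.00.

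In calcium signalling, 0 of 10 genes tested were called, against 1.31% over all genes, with a median log2FC of 0.04. At that share, 0 calls among 10 genes do not set the list apart. GLR2.7 (PRUPE_4G056200), a glutamate receptor-like channel, had the lowest p of these, with 0.650, 0.874 and 0.676 CPM in PpPep2 24 h leaves, against 0.166, 0.164 and 0.454 CPM in t0 leaves (edgeR adjusted p = 0.0237). The calcium-binding protein CML46 (PRUPE_3G266000) averaged 10.7 ± 2.86 CPM in PpPep2 24 h leaves and 4.64 ± 1.36 CPM in t0 leaves (edgeR adjusted p = 0.062). Of 8 MAP kinase cascade and type 2C phosphatase genes, 0 were called (1.31% over all genes). MAP kinase kinase kinase 18 (PRUPE_6G054400) averaged 1.99 ± 0.16 CPM in PpPep2 24 h leaves and 3.82 ± 0.50 CPM in t0 leaves, with a log2FC of -0.94 ± 0.20 that missed the size threshold.

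The effector lists held few named genes and 0 calls (1.31% over all genes), so the lack of calls does not set them apart. Of 3 pathogenesis-related genes tested, the class V chitinase and the Kunitz inhibitor stayed within a log2FC of 0.05 and -0.24, and PR4 is given above. Of 3 peroxidase, glutathione S-transferase and glutaredoxin genes, glutathione S-transferase L3 (PRUPE_6G244700) averaged 47.2 ± 6.89 CPM in PpPep2 24 h leaves and 38.5 ± 4.91 CPM in t0 leaves. Of 5 phenylpropanoid and flavonoid genes, log2FC ran from -0.31 to 0.49. Of 3 resistance proteins, the RPP13-like gene PRUPE_7G160100 averaged 2.26 ± 0.18 CPM in PpPep2 24 h leaves and 1.26 ± 0.12 CPM in t0 leaves, and its log2FC of 0.85 ± 0.23 had an edgeR adjusted p of 0.0314. The cell wall list had 2 members, of which COBRA (PRUPE_3G250400), a cellulose orientation protein, averaged 13.8 ± 1.86 CPM in PpPep2 24 h leaves and 12 ± 3.84 CPM in t0 leaves. The single heat shock gene, HSP60-3A (PRUPE_3G049300), averaged 3.72 ± 0.87 CPM in PpPep2 24 h leaves and 3.29 ± 0.85 CPM in t0 leaves. The lists set up for chlorophyll-binding proteins, photosystem and RuBisCO subunits, cytosolic ribosomal proteins, cyclins and histones, core clock genes and terpene synthases matched no name, so these groups are not described.

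**Figure D4:**
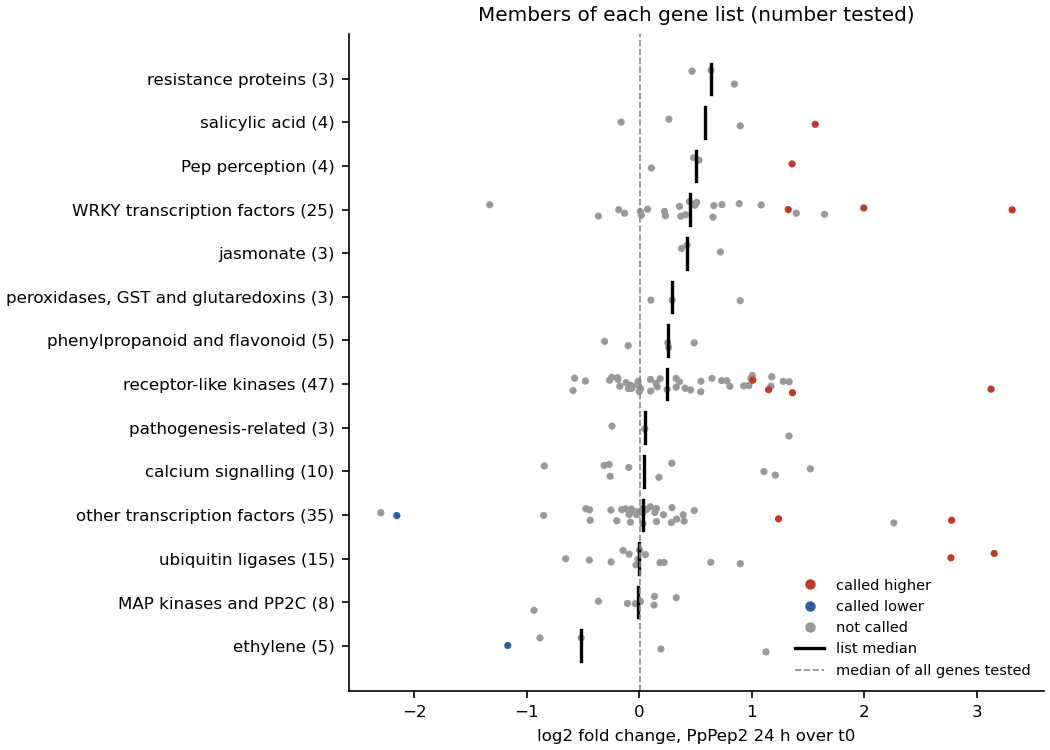
Log2 fold change of PpPep2 24 h over t0 (horizontal axis) for each tested member of the gene lists with at least 3 members, with the number tested beside the list name. Red points were called higher, blue points lower and grey points not called, black bars are list medians, and the dashed line is the median of all genes tested. Called members of the WRKY and receptor-like kinase lists lie to the right, and TEM1 and bZIP34 to the left.

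Outside the lists by role, 3 named genes were called, of which AAA-ATPase ASD belongs to the network cluster described next. The largest change of a named gene was that of GDPD1 (PRUPE_3G310500), a chloroplast glycerophosphodiester phosphodiesterase that frees glycerol 3-phosphate from lipid breakdown products. It had 70.2, 69.7 and 47.7 CPM in PpPep2 24 h leaves, against 4.33, 5.27 and 7.98 CPM in t0 leaves. The groups stood far apart, and GDPD1 rose 10.7-fold (log2FC 3.42 ± 0.61, edgeR adjusted p = 0.00334). ATPS3 (PRUPE_2G277200), named after an Arabidopsis gene of the glycerol 3-phosphate permease family, had 26.9, 22.6 and 19.9 CPM in PpPep2 24 h leaves, against 5.45, 6.48 and 7.65 CPM in t0 leaves. It rose 3.55-fold and its edgeR adjusted p of 0.00995 was just under the threshold. Both Arabidopsis namesakes are known to rise when phosphate is short. The ATPS3 call was lost without any one of the 6 libraries (edgeR adjusted p up to 0.0599). RLE size factors, no filter on low counts or a replicate block also lost this call. That of GDPD1 was lost without any t0 library or without PpPep2 24 h replicate 2 (edgeR adjusted p up to 0.0272), with a log2FC of at least 3.24 under each of the 12 alternatives. In PpPep1 24 h leaves GDPD1 had 104 ± 70.9 CPM and ATPS3 30.7 ± 15.4 CPM. AAA-ATPase ASD (PRUPE_3G274100) had 2.86, 3.77 and 3.56 CPM in PpPep2 24 h leaves, against 1.41, 1.23 and 1.96 CPM in t0 leaves (log2FC 1.15 ± 0.23). Its call was lost without PpPep2 24 h replicate 2 or 3 or t0 replicate 1 or 2. It was also lost when the 6 libraries were fitted alone (edgeR adjusted p up to 0.0281 in these fits).

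For the second cluster of the Pep response network that the study built, 192 distinct peach genes of the count table could be matched, which is not its full list of nodes, and 191 were tested. Of these, 10 rose and 1 fell, 5.76% against 1.31% over all genes, and 180 were not called. The median log2FC of the cluster was 0.04, with 107 of 191 positive. The study chose this cluster on these samples, so its share is not independent evidence. WRKY55, NAC22 and TEM1 are among the 11, as is the unnamed PRUPE_2G086100, with 0.736, 0.892 and 0.614 CPM in PpPep2 24 h leaves, against 0.0416, 0.0818 and 0.0956 CPM in t0 leaves. Its call was lost without t0 replicate 1 (edgeR adjusted p = 0.0108).

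Of the 226 DEG without a name, the 2 with the highest and the 2 with the lowest log2FC at a group mean of at least 1 CPM are given. PRUPE_4G059600 had 27.8, 30.7 and 20.4 CPM in PpPep2 24 h leaves, against 0.894, 1.82 and 1.41 CPM in t0 leaves. It rose 19.1-fold (log2FC 4.26 ± 0.36, edgeR adjusted p = 8.2e-06). Its level was 1.03 ± 0.234 CPM in PpPep2 1 h leaves and 36.5 ± 5.44 CPM in PpPep2 48 h leaves. PRUPE_2G204500 had 2.96, 3.20 and 2.74 CPM in PpPep2 24 h leaves, against 0, 0.470 and 0 CPM in t0 leaves. With 2 of 3 t0 libraries at 0 its fold change is poorly fixed, and its call was lost when the 6 libraries were fitted alone (edgeR adjusted p = 0.0556). PRUPE_7G217400 had 2.89, 2.60 and 1.70 CPM in PpPep2 24 h leaves, against 10.5, 8.30 and 8.32 CPM in t0 leaves. PRUPE_6G013600 had 2.04, 1.04 and 0.676 CPM in PpPep2 24 h leaves, against 6.47, 4.50 and 4.88 CPM in t0 leaves. Both fell, with a log2FC of -1.91 ± 0.27 for PRUPE_7G217400 and -2.06 ± 0.41 for PRUPE_6G013600. The PRUPE_6G013600 call was lost without PpPep2 24 h replicate 2 or 3 or t0 replicate 1 or 3. It was also lost when the 6 libraries were fitted alone (edgeR adjusted p up to 0.0327 in these fits). With the columns as headed, PRUPE_7G217400 had a log2FC of 0.55.

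To place the 24 h state in the course of the response, PpPep2 24 h leaves were compared with PpPep2 1 h leaves. Here 1471 of 18586 genes were called (7.91%), 294 higher (1.58%) and 1177 lower (6.33%) at 24 h. These groups ran largely on different flowcells, which cannot be told apart from time, and the PpPep2 1 h libraries were also named by matching. Of the 19 RT-qPCR genes, 17 were lower at 24 h than at 1 h and PR4 was higher, with a log2FC of 2.49 ± 0.50. WRKY33 averaged 7.99 ± 2.17 CPM at 24 h and 251 ± 92.0 CPM at 1 h. CDPK11 (PRUPE_7G090800) averaged 1.44 ± 0.24 CPM at 24 h and 79.4 ± 31.9 CPM at 1 h. Of 25 WRKY genes, 16 were lower at 24 h, as were 8 of 10 calcium signalling genes and 6 of 8 MAP kinase and phosphatase genes. So were 30 of 47 genes on the receptor-like kinase list and all 5 on the ethylene list, TEM1 among them. WRKY50 averaged 2.40 ± 0.475 CPM at 24 h and 3.44 ± 1.12 CPM at 1 h and was not called (edgeR adjusted p = 0.112). NAC22 averaged 20.7 ± 2.63 CPM at 24 h and 38.7 ± 3.06 CPM at 1 h, and its log2FC of -0.90 ± 0.17 missed the size threshold only. The exception among the called kinases was PRUPE_2G087200, higher at 24 h (0.521 ± 0.24 CPM) than at 1 h (0.168 ± 0.05 CPM). The RT-qPCR genes were chosen on these samples. Many names on the lists come from gene sets or a network drawn from genes responding in these samples. The counts of members lower at 24 h are therefore not independent of the data. This comparison shares its PpPep2 24 h libraries with that against t0.

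**Figure D5:**
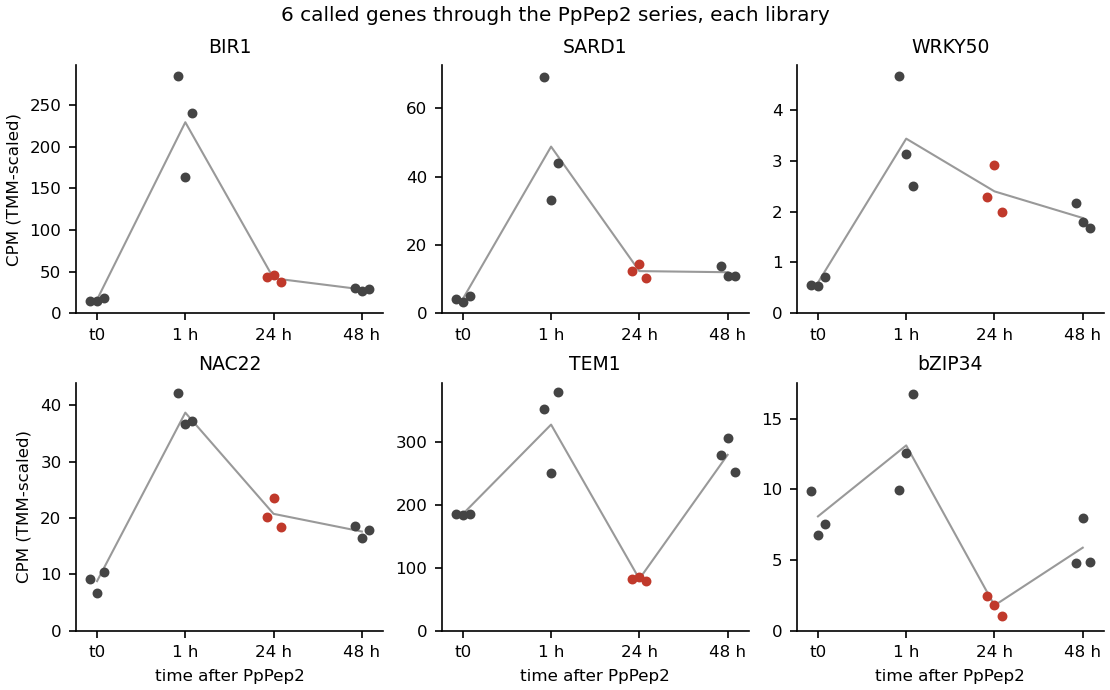
CPM of 6 called genes in each library (points) at t0 and 1, 24 and 48 h after PpPep2, with lines through the group means and the 24 h libraries in red. BIR1, SARD1, WRKY50 and NAC22 stand above t0 at 24 h and under their 1 h mean, and TEM1 and bZIP34 are lowest at 24 h. The 48 h libraries were sequenced on other flowcells than t0 and 24 h, and the 1 h libraries largely so.

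PpPep2 24 h leaves were also set against PpPep1 24 h leaves, at doses of 1000 nM and 100 nM. With 7 DEG of 18586 (0.0377%), 6 higher (0.0323%) and 1 lower (0.00538%) after PpPep2, this was the smallest of the 3 comparisons, and none of the 7 has a name. Their numbers moved strongly with the method: DESeq2 called 62, and leaving out 1 library gave 0 to 6, with 0 without PpPep1 24 h replicate 1, PpPep2 24 h replicate 1 or PpPep2 24 h replicate 2. In edgeR, 9 genes (0.0484%) had an adjusted p below 0.01 at any fold, and 2840 genes had an unadjusted p under 0.05. The clearest was PRUPE_1G249000, chosen after its values were seen, with 5.78, 6.12 and 4.36 CPM in PpPep2 24 h leaves and 1.43, 2.03 and 1.33 CPM in PpPep1 24 h leaves (log2FC 1.77 ± 0.22, edgeR adjusted p = 0.00199). Among the named genes, BIR1 averaged 42.0 ± 4.29 CPM in PpPep2 24 h leaves and 27.6 ± 3.10 CPM in PpPep1 24 h leaves. SARD1 averaged 12.3 ± 2.03 CPM in PpPep2 24 h leaves and 6.97 ± 0.281 CPM in PpPep1 24 h leaves. bZIP34 averaged 1.80 ± 0.701 CPM in PpPep2 24 h leaves and 1.88 ± 0.0689 CPM in PpPep1 24 h leaves, and none of these 3 was called. Dose and flowcell differ between these groups along with the peptide and cannot be told apart from it, and 7 calls do not show that the peptides act alike.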

How the data were processed

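RNA from leaf blades was sequenced as stranded read pairs in 21 libraries of 7 groups. The authors aligned reads with STAR 2.5.3a to the NCBIv2 genome of Prunus persica, estimated expected counts per gene with RSEM 1.3.0 and deposited them as whole numbers without normalization; their own tests used DESeq2 1.20.0. How expected counts became whole numbers is not given in the sources used here. The table holds 27107 genes (26873 protein coding, 234 tRNA).

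Columns were assigned to libraries where the total count was between 0.95 and 0.99 of the listed read pairs and the number of genes holding 25% of reads was equal. In 3 columns with 2 candidates the number of detected genes decided. In this way 12 columns matched their heading and 9 another one. Totals ranged from 33231519 to 59317510, and estimates rest on the spread between replicates.

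Counts were filtered by filterByExpr, scaled by TMM and tested with edgeR 4.0.16 (R 4.3.3, robust quasi-likelihood, all 21 libraries). Standard errors (SE) were derived as |log2FC| over the root of the F statistic. CPM are TMM-scaled. Names came from the table, the paper and its supplements (599 genes), and 0 identifiers matched the RefSeq gene list, so no positions are given. Members, gene lists and tests were chosen with earlier results of these data known. Genes named are the Pep and flagellin receptors and the 19 RT-qPCR genes, the 10 highest and lowest named DEG without overlap at a mean of at least 1 CPM, up to 4 DEG per list (the 2 with the lowest p where none was a DEG), and 2 unnamed DEG in each direction. PRUPE_1G249000 falls outside this rule. Alternatives were DESeq2 1.42.0, RLE factors, 2 other filters, the 6 libraries alone, a replicate block, each library left out, other thresholds and the columns as headed. On simulated data for PpPep2 24 h against t0 (18415 genes), the procedure called 22 of 50 genes changed 2-fold and 47 of 50 changed 3-fold, with 0 false calls. A 2-fold change lies on the log2FC threshold of 1, so many such genes miss it whatever the depth. The simulated counts held only the fitted spread, so 0 false calls there does not carry over to the real libraries.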

Additional observations from a re-analysis of the deposited data

Results flagged for a closer look

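The 24 h effects of PpPep2 and PpPep1, each taken relative to the same t0 libraries, differed in 7 genes by the direct edgeR test between the peptides, 6 of them higher after PpPep2. The number was 0 in 3 of the 6 fits that left out a library. The doses of 1000 nM and 100 nM and the flowcells differ along with the peptide.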

How the results depend on the processing

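For PpPep2 24 h against t0 (244 DEG, 189 higher and 55 lower), leaving out 1 of the 6 libraries gave 125 to 231 DEG, 100 to 170 higher and 20 to 63 lower, and 8 to 16 called members of the gene lists in place of 17. The 6 libraries alone gave 161 DEG, 27 of them lower. DESeq2 gave 319 DEG, 229 higher and 90 lower, and 25 called members of the gene lists. Dropping the fold threshold gave 507 and an adjusted p under 0.05 gave 374. With columns as headed there were 841 DEG, 404 higher and 437 lower. RLE factors, no filter and the CPM filter gave 238, 235 and 205. Against PpPep1 24 h, DESeq2 called 62 (49 higher, 13 lower) in place of 7, and leaving out a library gave 0 to 6, with 0 to 5 higher and 0 to 2 lower. Against PpPep2 1 h, 3809 genes passed without the fold threshold in place of 1471, and leaving out a library gave 1290 to 1594. The cause was not tested. Replicate numbers do not pair the libraries: deviations of same-numbered PpPep2 24 h and t0 libraries correlated at 0.0573, -0.1835 and 0.0984. With the replicate block the counts were 231 against t0, 6 against PpPep1 24 h and 1456 against PpPep2 1 h, and U-box 21 (PRUPE_1G336200) and ATPS3 lost their calls.

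The 58 genes singled out by the naming rule (5 of them without a name) gave 695 values under alternatives that kept the matched columns. Of these, 610 kept direction and side of the threshold, 62 lost a call, 7 gained one and 16 changed sign. Of 23 called genes, 9 were called throughout. MPK3 had a log2FC of -0.0005 with DESeq2, -0.0004 with RLE factors and -0.0002 with no filter. Leaving out 1 library moved the log2FC of MPK3 between -0.0907 and 0.1062, Basic 7S globulin 2 between -0.577 and 0.2652, Peroxidase 44 between -0.1083 and 0.2346, PHLOEM PROTEIN 2-LIKE A1 between -0.0817 and 0.0166, HSP60-3A between -0.0307 and 0.3421, U-box 21 (PRUPE_3G164200) between -0.9088 and 0.3115, PpPEPR1b between -0.0633 and 0.2662 and COBRA between -0.053 and 0.3519; none of these genes was called in the full set. With columns as headed, 11 genes changed sign: PRUPE_1G116100 0.1367, TEM1 0.842, PRUPE_3G164200 0.0008, PpPEPR1a -0.4595, PRUPE_3G171500 1.0266, Glutaredoxin-C9 -0.8153, ERF1a 0.1223, MPK3 -0.1538, Glutathione S-transferase L3 -0.035, Peroxidase 44 -1.51 and PRUPE_7G217400 0.5469.

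Depth limits the genes under 1 CPM, where 1 read was worth 0.0161 CPM or more. With 3 libraries a group, a gene without a call is not shown to be unchanged.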
